A study of Homo sapiens with 7 samples.

Results

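The 4 HOX gene clusters were examined in T-47D, a luminal, estrogen receptor-positive breast cancer cell line, by chromatin immunoprecipitation and sequencing (ChIP-seq) of 6 histone marks and variants. The members were all peaks that shared at least 1 bp with the windows of the HOXA cluster (chr7:27120000-27260000), the HOXB cluster (chr17:46600000-46815000), the HOXC cluster (chr12:54325000-54455000) and the HOXD cluster (chr2:176940000-177060000), all in build hg19. These windows span 605 kb and held 130 of the 286998 peaks of the series. No treatment is named, the cells were grown in DMEM with serum and taken before confluence, and each antibody (against H2A.Z, H3K27ac, H3K27me3, H3K36me3, H3K4me2 or H3K9me3) gave 1 library and 1 peak list. An input library was also listed and was not analysed here. Since there are no replicates, no comparison between marks or clusters carries a test, and every difference below is a difference between these libraries.

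HOX genes encode homeodomain transcription factors that give cells their position along the body axis. Within a cluster the genes of low paralog number are switched on first and furthest to the front of the embryo, and those of high number later and further back, an order known as collinearity. Polycomb complexes keep unused HOX genes silent and leave H3K27me3 on them, while Trithorax proteins maintain the active ones. H3K4me2 and H3K27ac are found at active promoters and enhancers and are called active marks below. That name does not show that a given H3K4me2 peak is active. H3K36me3 is laid down along genes during transcription elongation.

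The 38 HOX genes considered are placed here by their order alone. In the RefSeq gene table the paralog number rises along HOXA from HOXA2, a patterning gene of the hindbrain and second pharyngeal arch, through HOXA3, HOXA4, HOXA5, HOXA6, HOXA7, HOXA9, HOXA10 and HOXA11 to HOXA13, which acts in the distal limb and urogenital tract. HOXB runs from HOXB1, a hindbrain gene, through HOXB2, HOXB3, HOXB4, HOXB5, HOXB6, HOXB7, HOXB8 and HOXB9 to HOXB13, a factor of the hindgut and prostate. HOXC holds HOXC4, HOXC5, HOXC6, HOXC8, HOXC9, HOXC10, HOXC11, HOXC12 and HOXC13, the last of them a regulator of hair keratins. HOXD holds HOXD1, HOXD3, HOXD4, HOXD8, HOXD9, HOXD10, HOXD11, HOXD12 and HOXD13, the last of them needed for digits. That table is of build GRCh38.p14 and the peaks are in hg19, so the order of the genes was used and no peak was assigned to a single gene. Distances below run in kb from the window edge on the side of the low paralog numbers, called the early edge. It is the low-coordinate edge in HOXA and HOXB and the high-coordinate edge in HOXC and HOXD.

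The reference sequence just before starts of genes at the ends of the order is shown, because the marks were compared between those ends. The start shown for HOXC4 is shared with HOXC5, so it does not mark the early end of HOXC. Each line gives the 250 bases before the start, 5′ to 3′ on the gene's strand, from RefSeq (GRCh38.p14), with every CG dinucleotide in capitals. HOXA2, HOXA13 and HOXB1 lie on the minus strand, and HOXC4, HOXD1 and HOXD13 on the plus strand.
HOXA2: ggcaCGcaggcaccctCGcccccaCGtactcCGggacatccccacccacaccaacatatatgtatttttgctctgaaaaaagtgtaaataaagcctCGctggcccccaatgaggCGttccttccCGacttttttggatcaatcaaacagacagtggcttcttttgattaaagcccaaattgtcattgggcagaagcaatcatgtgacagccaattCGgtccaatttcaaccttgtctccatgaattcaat
HOXA13: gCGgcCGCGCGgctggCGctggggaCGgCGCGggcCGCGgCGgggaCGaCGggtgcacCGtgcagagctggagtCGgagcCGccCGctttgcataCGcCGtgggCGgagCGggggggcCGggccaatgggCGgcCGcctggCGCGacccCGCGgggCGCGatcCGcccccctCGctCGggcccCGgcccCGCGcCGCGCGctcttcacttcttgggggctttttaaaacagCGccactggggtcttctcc
HOXB1: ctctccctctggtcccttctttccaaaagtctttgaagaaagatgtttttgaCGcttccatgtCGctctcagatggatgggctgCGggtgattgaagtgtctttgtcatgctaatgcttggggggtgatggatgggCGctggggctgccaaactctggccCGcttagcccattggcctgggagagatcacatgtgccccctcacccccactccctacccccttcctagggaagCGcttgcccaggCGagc
HOXC4: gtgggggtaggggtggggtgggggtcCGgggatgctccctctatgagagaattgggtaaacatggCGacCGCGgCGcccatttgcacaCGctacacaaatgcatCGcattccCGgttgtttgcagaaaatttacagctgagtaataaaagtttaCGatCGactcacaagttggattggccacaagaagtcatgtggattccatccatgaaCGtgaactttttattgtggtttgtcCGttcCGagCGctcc
HOXD1: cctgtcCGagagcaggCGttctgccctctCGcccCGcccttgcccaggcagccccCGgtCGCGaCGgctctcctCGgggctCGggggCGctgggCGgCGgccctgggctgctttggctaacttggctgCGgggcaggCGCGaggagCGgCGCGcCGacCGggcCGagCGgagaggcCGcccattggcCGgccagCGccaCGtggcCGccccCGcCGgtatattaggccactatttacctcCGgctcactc
HOXD13: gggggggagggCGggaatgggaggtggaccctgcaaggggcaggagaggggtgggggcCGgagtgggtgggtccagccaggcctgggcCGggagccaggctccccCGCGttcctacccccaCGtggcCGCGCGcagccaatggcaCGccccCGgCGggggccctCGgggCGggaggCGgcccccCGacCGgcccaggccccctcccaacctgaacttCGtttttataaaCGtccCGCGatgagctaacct
The 2 ends of HOXA differ in these letters, with 8 CG before HOXA2 and 40 before HOXA13. In HOXD the order is the other way, with 31 before HOXD1 and 21 before HOXD13. HOXB1 has 7 CG, and the start shared by HOXC4 and HOXC5 has 14. Of the 38 members, 20 had an entry in the promoter table, at 26 different starts (HOXC4 and HOXC5 share 1), and the median over those starts was 19.5 CG (range 0 to 40). Over all 34943 starts of the table the median was 11. The letters TATAAA, searched on both strands, occurred before 5 of the 26 starts (19.2%) and before 10.8% of all starts. Entries were uneven, with 9 of the 10 HOXA genes and 8 of the 9 HOXD genes but only HOXB1 in HOXB, so the clusters are not compared on this measure. HOXA gave 16 of the 26 starts, several of them from HOXA3 alone, so the starts do not weigh the genes equally.

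The clusters also carry microRNA genes, and 2 mature products are shown from RefSeq with the seed (bases 2 to 8) in capitals, because the same seed recurs in HOXA, HOXB and HOXC.
hsa-miR-196a-5p: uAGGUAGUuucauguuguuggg
hsa-miR-196b-5p: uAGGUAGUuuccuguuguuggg
The seed AGGUAGU is shared by hsa-miR-196a-5p and hsa-miR-196b-5p. In the gene table MIR196A1 lies between HOXB9 and HOXB13, MIR196A2 between HOXC10 and HOXC9, and MIR196B between HOXA9 and HOXA10.

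Some properties of the lists bear on what follows. The files give a start and an end for each peak and no height, so a covered share of bp is the only amount, read depth is unknown, and the mark may be present below the calling threshold where no peak is listed. Across chromosomes 1 to 22 and X, 0.343% of the peaks labelled H2A.Z met H3K4me2 or H3K27ac and 14.8% met H3K27me3, whereas 47.7% of the peaks labelled H3K9me3 met H3K4me2 or H3K27ac. Both go against what these names stand for, so both are named below by their labels only. The commonest peak width was 0.5 kb, and 58 of the 130 HOX peaks had it. Copy number was not corrected.

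The 4 clusters fell into different patterns of marks. HOXA and HOXB held H3K27me3 together with active marks, HOXC held active marks and H3K36me3 with no H3K27me3 peak, and HOXD held a few active peaks and little else. H3K4me2 and H3K27ac were found in all 4 clusters, with 47 and 29 peaks, and covered 7.56% and 6.27% of the 605 kb against 1.90% and 1.29% of the genome. H3K27me3 had 22 peaks and covered 2.43% against 1.75%. H3K36me3, with 15 peaks, covered 2.24% against 3.63%. The list labelled H3K9me3 had 16 peaks over 2.04% against 0.484%, and the list labelled H2A.Z had 1 peak where its density over the genome would place 11.4.

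**Figure D1:**
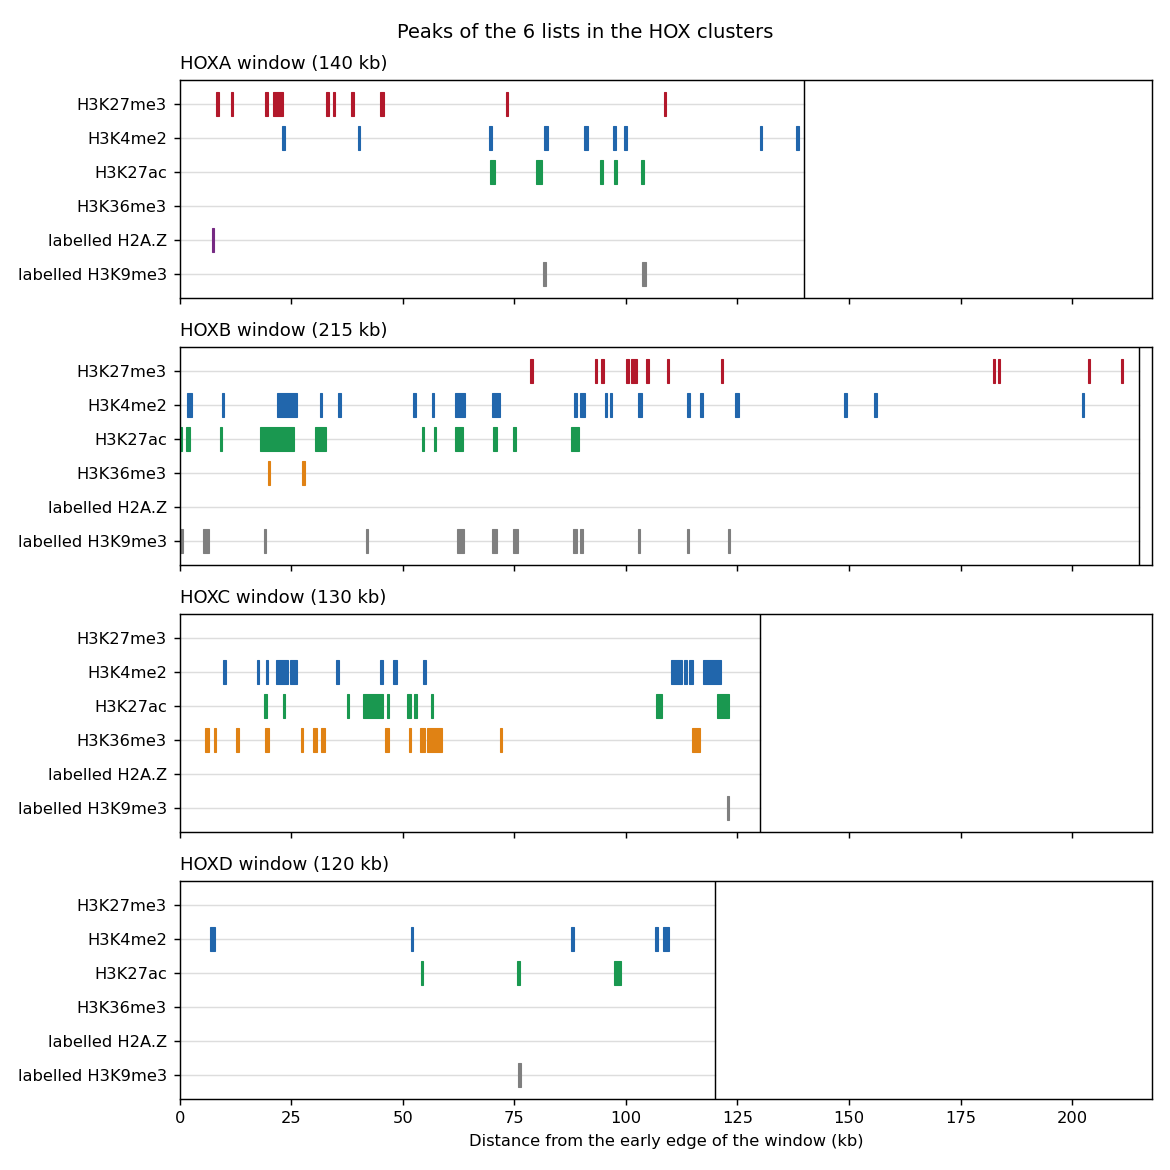
Peaks of the 6 lists (rows) in the 4 HOX windows (panels), by distance from the early edge in kb; each box is 1 peak, drawn to scale with a thin outline, and the vertical line is the end of the window. H3K27me3 has 8 of its 10 HOXA peaks before 45.8 kb and begins at 78.6 kb in HOXB, and its row is empty in HOXC and HOXD.

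**Figure D2:**
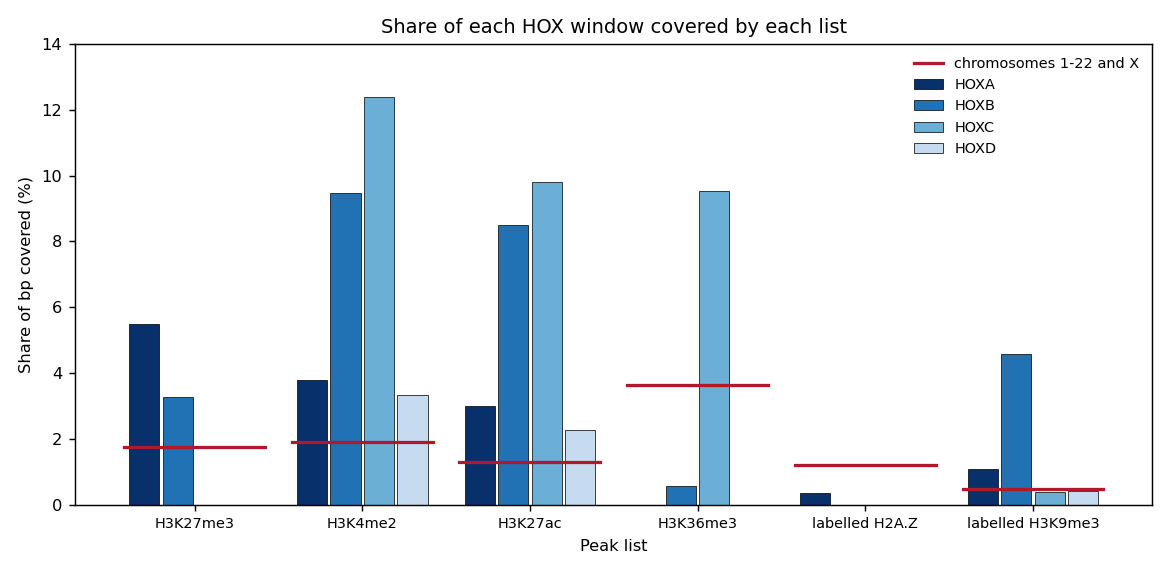
Share of the bp of each HOX window covered by each list (bars, 1 library per list, no error bars), with the share of chromosomes 1 to 22 and X as a red line. HOXC has the highest bars for H3K4me2 (12.4%), H3K27ac (9.81%) and H3K36me3 (9.52%), and HOXA for H3K27me3 (5.48%).

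HOXA was divided, with H3K27me3 toward HOXA2 and H3K27ac toward HOXA13. Its 10 H3K27me3 peaks (95% exact Poisson interval 4.80 to 18.4, counting error only) covered 5.48% of the window. Divided at its midpoint, the window was covered to 9.52% on the early side and to 1.43% on the late side. H3K27ac ran the other way, with 5 peaks, the first at 69.5 kb and the last ending at 104.0 kb, and 0.781% of the early side against 5.21% of the late side. The early value comes from the 1 peak that crosses the midline at 70 kb. H3K4me2 had 9 peaks and covered 2.15% of the early side and 5.45% of the late side. H3K36me3 had no peak in HOXA. Its density over the genome would place 2.65 there, within the interval of a count of 0 (0 to 3.69).

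H3K27me3 in HOXA consisted of separate short peaks. The first 8 lay between 8.1 and 45.8 kb, and the widest of them measured 2350 bp (chr7:27140802-27143151). The other 2, at 73.1 and 108.5 kb, had the commonest width of 0.5 kb and lay among the active peaks. H3K27me3 was present in 9 of the 28 bins of 5 kb in HOXA (32.1%), where 9.35% of bins over the genome held it. H3K27ac was in 7 of the 28 bins (25%, against 5.83% over the genome), and H3K4me2 in 10 (35.7%, against 11.4%). This share of bins is above the background for all 3 marks.

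The widest H3K27ac peak of HOXA measured 1205 bp (chr7:27189454-27190658) and overlapped the H3K4me2 peak at 69.4 kb over 456 bp. The widest H3K4me2 peak, 777 bp at 81.7 kb, overlapped a peak of the list labelled H3K9me3. That list had 2 peaks in HOXA, at 81.5 and 103.5 kb, both on the active side. The only peak labelled H2A.Z in any cluster (chr7:27127283-27127783) lay on the early side of HOXA, 0.3 kb from the nearest H3K27me3 peak.

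HOXB had most of the bp of its active marks toward the other end of the window from HOXA, on the side of HOXB1. H3K27ac covered 17.0% of the early side and 0% of the late side, and H3K4me2 15.2% and 3.80%. These sides are cut at the midpoint in bp, 107.5 kb. The genes on each side were not counted, so the values do not compare like numbers of early and late genes. Of the 12 H3K27me3 peaks (interval 6.20 to 21.0), 6 lay on each side of the midpoint. They were absent from the early end, since the first of them began at 78.6 kb. Of the 11 H3K27ac peaks, 10 lay before that point and 1 after it, at 87.6 to 89.4 kb. H3K4me2 reached further, with 9 of its 20 peaks before 78.6 kb and 11 after, the last ending at 202.7 kb.

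The widest H3K27ac and H3K4me2 peaks of the 4 clusters lay together at the early end of HOXB. The H3K27ac peak spanned 7687 bp (chr17:46618027-46625713) and shared 3983 bp with the 4588 bp H3K4me2 peak (chr17:46621731-46626318). A 0.5 kb H3K36me3 peak lay inside the H3K27ac peak at 19.8 kb, and the other H3K36me3 peak of HOXB, 695 bp, followed at 27.3 kb. The share of H3K27ac peaks on H3K4me2 was highest in HOXB. Of the H3K27ac peaks, 8 of 11 overlapped H3K4me2 in HOXB, 2 of 5 in HOXA, 4 of 10 in HOXC and 0 of 3 in HOXD. Over the genome 48.8% of H3K27ac peaks did, and over the 4 clusters together 48.3%.

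H3K27me3 in HOXB was thin, with 9 of the 12 peaks at the commonest width and the widest at 1212 bp (chr17:46701250-46702461). The peaks formed a group of 8 from 78.6 to 121.8 kb, a pair at 182.2 and 183.3 kb, and single peaks at 203.5 and 210.9 kb. H3K27me3 was in 8 of 43 bins of 5 kb (18.6%, against 9.35% over the genome). H3K4me2 was in 21 (48.8%, against 11.4%) and H3K27ac in 12 (27.9%, against 5.83%). The surroundings were also rich in these 2 marks. H3K4me2 covered 9.48% of the window and 5.77% of the 2500 kb on each side, and H3K27ac 8.50% and 4.73%. H3K27me3 covered 3.75% of the early and 2.80% of the late side, and the sign of this difference turned when the window was divided into 3 parts and the outer parts were compared (2.80 percentage points higher in the late part).

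The list labelled H3K9me3 had most of its HOX peaks in HOXB. It had 12 there (interval 6.20 to 21.0), where its density over the genome would place 1.59, and 2, 1 and 1 in HOXA, HOXC and HOXD. Those peaks touched 12 of 43 bins (27.9%, against 3.96% over the genome). Of the 12, 6 overlapped H3K27ac and 6 overlapped H3K4me2, where 30.4% and 35.3% of the list did over the genome. The widest, 1453 bp (chr17:46662211-46663663), lay within an H3K4me2 peak over its whole length. None of its 16 HOX peaks overlapped H3K27me3, as 3.55% of the list did over the genome.

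HOXC was the most widely marked cluster and held no H3K27me3 peak. Its 0 of 26 bins with H3K27me3 stand against 9.35% over the genome, whose density would place 3.02 peaks in the window, within the 95% exact Poisson interval of a count of 0 (0 to 3.69). H3K4me2 (13 peaks), H3K27ac (10 peaks) and H3K36me3 (13 peaks) covered 12.4%, 9.81% and 9.52% of the window. At least 1 list covered 28.1% of HOXC, against 19.1% of HOXB, 12.3% of HOXA and 5.64% of HOXD. H3K36me3 was in 11 of 26 bins of 5 kb (42.3%, against 9.34% over the genome), H3K4me2 in 13 (against 11.4%) and H3K27ac in 9 (34.6%, against 5.83%). H3K36me3 had 13 of its 15 HOX peaks here. The 2500 kb on each side of HOXC were also rich in it, with 8.77% covered, while H3K4me2 covered 5.02% and H3K27ac 4.81% there.

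The active marks of HOXC lay in 2 groups. From 106.7 to 123.2 kb, on the side of HOXC13, there were 4 H3K4me2 and 2 H3K27ac peaks but 1 H3K36me3 peak. Between 9.8 and 56.8 kb, on the side of HOXC4, there were 9 H3K4me2 and 8 H3K27ac peaks. The other 12 H3K36me3 peaks ended by 72.2 kb. A stretch of 49.9 kb between the groups (chr12:54348328-54398188) had neither H3K4me2 nor H3K27ac, and its longest run without any list measured 34.5 kb.

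The widest peaks of HOXC belonged to different marks in different places. H3K4me2 was widest on the late side, with 3967 bp (chr12:54333793-54337759). H3K27ac was widest on the early side, with 4643 bp (chr12:54409382-54414024), and the widest H3K36me3 peak there measured 3190 bp (chr12:54396290-54399479). H3K36me3 covered 15.8% of the early side and 3.26% of the late side. H3K4me2 covered 12.9% and 11.9%, and H3K27ac 13% and 6.59%. In both active marks the sign turned between the outer parts of a division into 3, where the late part was higher by 3.46 and 0.972 points. Of the 13 H3K36me3 peaks, 4 overlapped H3K27ac and 3 overlapped H3K4me2, or 30.8% and 23.1%. Over the genome these shares were 6.61% and 4.86%.

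HOXD was sparse. It held 5 H3K4me2 peaks, 3 H3K27ac peaks and 1 peak labelled H3K9me3, with none of H3K27me3, H3K36me3 or the list labelled H2A.Z. The genome densities of these 3 absent lists would place 2.79, 2.27 and 2.26 peaks. All 3 values are within the interval of a count of 0 (0 to 3.69). H3K4me2 covered 3.34%, against 1.90% of the genome and 1.49% of the 2500 kb on each side. H3K27ac covered 2.26%, against 1.29% and 1.24%. The 2 marks overlapped nowhere in HOXD. H3K4me2 was in 4 of 24 bins (16.7%, against 11.4% over the genome) and H3K27ac in 3 (12.5%, against 5.83%). The widest H3K27ac peak (1558 bp, chr2:176961064-176962621) and the widest H3K4me2 peak (1239 bp, chr2:176950391-176951629) both lay on the side of HOXD13, at 97.4 and 108.4 kb. Toward HOXD1 there was 1 H3K4me2 peak, at 6.9 kb, and then 43.7 kb without any list (chr2:177008236-177051960). The 1 peak labelled H3K9me3 shared 459 bp with the H3K27ac peak at 75.7 kb.

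The surroundings of the windows bear on the presence and absence of H3K27me3. HOXA lay in a region rich in it, since the 2500 kb on each side were covered to 7.22%, more than the 5.48% of the window itself. Peaks followed 4.2 kb beyond its early edge and 5.8 kb beyond its late edge. HOXB was an island. The nearest H3K27me3 peaks outside it were 294.7 kb beyond the early edge and 211.2 kb beyond the late edge, and its sides were covered to 1.49% against 3.27% within. HOXC lay within a gap longer than its window, with 5.95% covered on its sides, none in the window, and the nearest peaks 379.0 and 222.4 kb away. For HOXD the sides were covered to 0.195% and the whole of chromosome 2 to 0.464%, and the nearest peaks were 1373.8 and 767.0 kb away. The lack of H3K27me3 in HOXD therefore cannot be told apart from the low number of H3K27me3 peaks on this chromosome.

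**Figure D3:**
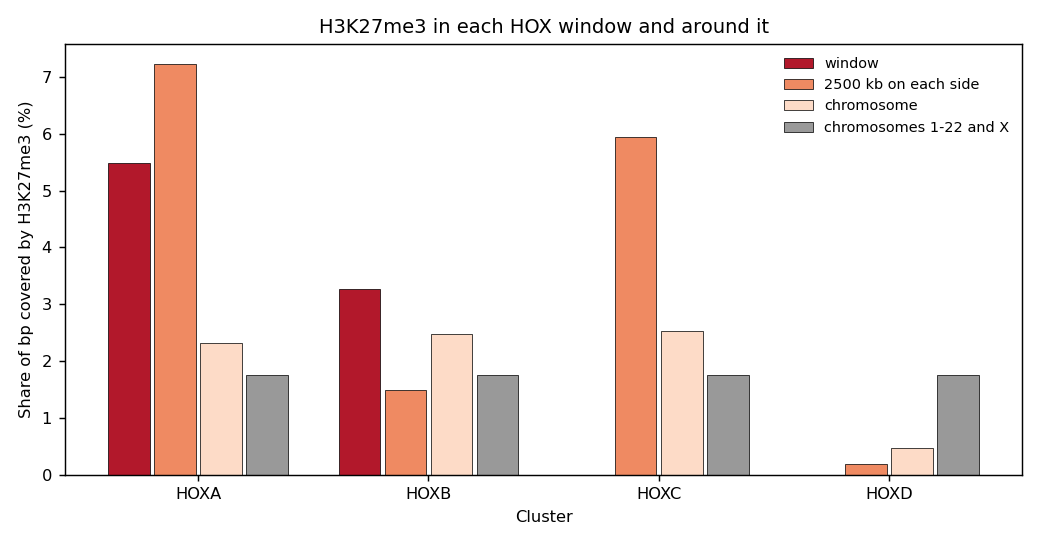
Share of bp covered by H3K27me3 in each HOX window, in the 2500 kb on each side, on the whole chromosome and on chromosomes 1 to 22 and X (bars, 1 library, no error bars). The window is above its sides in HOXB (3.27% against 1.49%) and below them in HOXA (5.48% against 7.22%) and HOXC (0% against 5.95%).

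Borders between H3K27me3 and active marks were sought by joining H3K27me3 peaks within 2 kb into blocks, doing the same for H3K4me2 and H3K27ac together, and listing neighbouring blocks of different kind. HOXA had 9 such borders and HOXB 13. With H3K27ac alone as the active mark there were 4 and 3, and with H3K4me2 alone 9 and 13. From the early edge on, the gaps at the 9 borders of HOXA measured 0, 9.34, 0.94, 4.50, 23.66, 2.47, 6.24, 4.54 and 20.97 kb. Those at the 13 borders of HOXB measured 3.22, 8.49, 2.17, 0.28, 3.21, 0, 5.53, 4.05, 4.03, 2.64, 25.94, 18.37 and 0.88 kb. The gap of 0 in HOXB is an H3K4me2 peak inside an H3K27me3 block, and the 5.53 kb after it is counted from that peak to the next block, past an H3K27me3 peak 0.8 kb away. With peaks not joined, a setting added after seeing the data, there were 9 borders in HOXA and 13 in HOXB. Gaps between blocks were mostly of a few kb in both clusters, with medians of 4544 bp in HOXA and 3224 bp in HOXB.

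The main change in HOXA lay between 45.8 and 69.4 kb. An H3K27me3 peak ended at chr7:27165753, and the next active block began at chr7:27189409, with 23.66 kb of no list between them. The closest contact was at 23 kb, where an H3K4me2 peak (chr7:27143046-27143546) overlapped the 2350 bp H3K27me3 peak by 106 bp. This was the only place in the 4 clusters where H3K27me3 shared sequence with H3K4me2 (1 of 22 peaks, or 4.55%, against 1.20% over the genome). No H3K27me3 peak overlapped H3K27ac (0 of 22, against 11 of 64492 over the genome) or H3K36me3 (0 of 22, against 4 of 64492). Both overlaps were rare over the genome too, so these counts of 0 are not particular to the clusters.

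In HOXB the change was gradual. The first gap, 3.22 kb, separated an H3K27ac peak ending at chr17:46675388 from the H3K27me3 peak chr17:46678613-46679113. After the last block with H3K27ac (chr17:46687601-46690834) the next H3K27me3 block began 2.17 kb on. H3K27me3 and H3K4me2 then alternated up to 125.4 kb, and 1 gap was 0.28 kb, between chr17:46694978 and chr17:46695260. An H3K4me2 peak at 102.7 kb lay between the H3K27me3 peaks of a single block (chr17:46700080-46705067) without touching one. At the far end, an H3K4me2 peak at 202.2 kb lay 0.88 kb from the H3K27me3 peak at 203.5 kb. H3K27me3 and an active mark were found in the same 5 kb bin in 5 of 43 bins of HOXB (11.6%) and 2 of 28 of HOXA (7.14%), where 0.589% of bins over the genome had both. Each mark alone was also in more bins here than over the genome. H3K27me3 and H3K4me2 were in 18.6% and 48.8% of bins in HOXB and 32.1% and 35.7% in HOXA. Over the genome they were in 9.35% and 11.4%. The part of these densities in the shared bins was not tested.

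H3K27me3 kept a greater distance from H3K27ac than from H3K4me2 in these clusters. Over the 22 H3K27me3 peaks, the nearest H3K4me2 peak was a median of 3.6 kb away (0.0 to 19.5 kb), and the nearest H3K27ac peak 27 kb (2.5 to 60.6 kb). In HOXA the medians were 4.8 and 35.4 kb, and in HOXB 2.4 and 17.4 kb. These windows hold more H3K4me2 than H3K27ac peaks (47 against 29), and the part of that number in the distances was not tested. H3K4me2 lay within 5 kb of 5 of the 10 H3K27me3 peaks of HOXA and 8 of the 12 of HOXB, and H3K27ac of 2 and 3. Borders rest on narrow peaks. Among peaks wider than the commonest width there was 1 border in HOXA and 2 in HOXB.

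**Figure D4:**
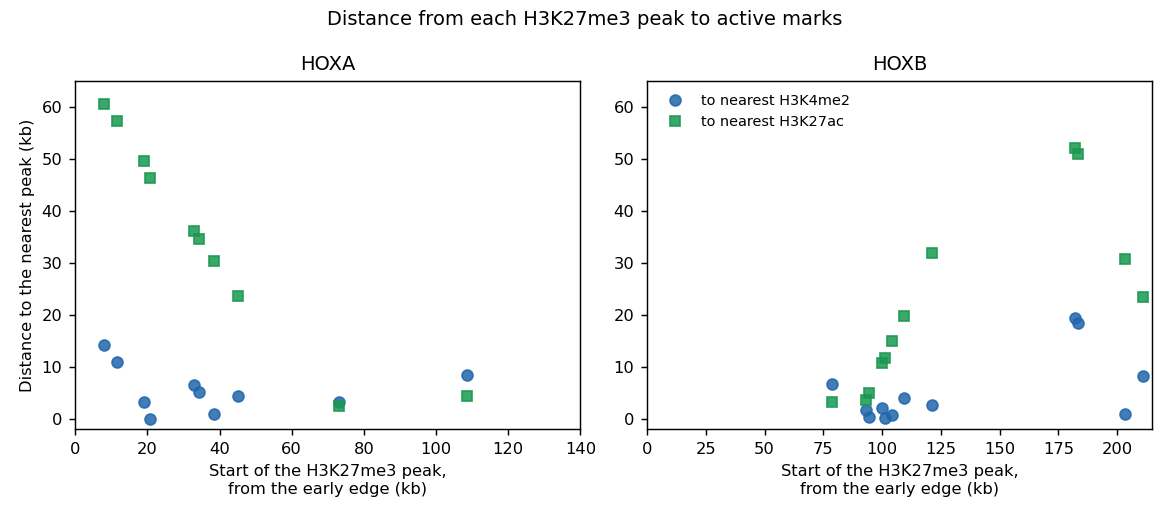
Distance in kb from each H3K27me3 peak (x axis, its start from the early edge in kb) to the nearest H3K4me2 peak (circles) and the nearest H3K27ac peak (squares), for the 10 peaks of HOXA and the 12 of HOXB. H3K27ac distances in HOXA fall from 60.6 kb at the first peak to 2.5 kb at the peak at 73.1 kb, and those in HOXB reach 52.2 kb in its late part, while no H3K4me2 distance exceeds 19.5 kb.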

How the data were processed

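ChIP-seq peak lists of 6 marks in T-47D cells were used, 1 list per library. Per the submitters' processing notes, Bowtie2 2.1.0, HOMER 4.2 and the builds hg19 and GRCh37 were used. What each tool did, how peaks were called, whether the input entered and how deep the libraries were is not given in the sources used here. Deposited files hold chromosome, start, end and name of each peak, with no height, score or p-value, so the positions and widths in bp are the authors' only values. Coordinates of peaks are 1-based.

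Peaks sharing at least 1 bp with a window were counted. Covered bp were taken after merging overlapping peaks of a list and cutting at the window edges. The genome background was the span from the first to the last peak of any list on chromosomes 1 to 22 and X, without 58 stretches of 1 Mb or more that hold no peak (2772.7 Mb left), in bins of 5 kb. Intervals are 95% exact Poisson intervals and cover counting error only. The interval functions were tested on simulated data and matched a count per base in 40 of 40 rounds.

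The named peaks follow a rule: the widest peak of each list in each cluster, overlaps of H3K27me3 with active marks, borders, and the longest empty stretches. Other peaks and values were chosen after they were seen. The members and lists were chosen with earlier results of these data known. Marks at gene starts, cofactor genes and neighbouring genes were planned and not analysed, because the gene table used is of GRCh38.p14. Python 3.11.15, numpy 2.4.6, scipy 1.17.1 and matplotlib 3.10.9 were used.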

Additional observations from a re-analysis of the deposited data

How the results depend on the processing

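A count or share was taken as unchanged when it stayed within 1.5 times its value. Of the alternatives, 60 of 72 peak counts, 63 of 72 covered shares, 48 of 72 differences between sides, 20 of 24 border counts and 70 of 72 ratios of bin shares did so. These totals include lists with no peak in a window and the borders of HOXC and HOXD. Those values were 0 at every setting, so they could not count as changed. Differences are the late minus the early side, in percentage points.

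With only peaks wider than the commonest width (0.5 kb), HOXA had 5 H3K27me3, 4 H3K4me2 and 0 labelled H2A.Z peaks. HOXB had 3 H3K27me3, 13 H3K4me2, 1 H3K36me3 and 6 labelled H3K9me3 peaks. HOXC had 4 H3K27ac, 8 H3K36me3 and 0 labelled H3K9me3 peaks, and HOXD had 3 H3K4me2 and 0 labelled H3K9me3 peaks. Covered shares were then 2.01% for H3K4me2 and 0% for labelled H2A.Z in HOXA, 1.17% for H3K27me3 and 0.323% for H3K36me3 in HOXB, and 0% for labelled H3K9me3 in HOXC and HOXD. Differences were -2.35 for H3K27me3 and -0.647 for H3K36me3 in HOXB, -1.82 for H3K27ac in HOXC and 0 for labelled H2A.Z in HOXA and for labelled H3K9me3 in HOXC and HOXD. That of H3K4me2 in HOXC turned to 0.546. Borders fell to 1 in HOXA and 2 in HOXB. In a separate setting, with peaks of all widths and H3K27ac alone as the active mark, there were 4 and 3.

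With windows divided into 3 parts and the outer parts compared, the difference turned for H3K27me3 in HOXB (2.80) and for H3K4me2 (3.46) and H3K27ac (0.972) in HOXC. It was -13.2 for H3K27me3 and -1.07 for labelled H2A.Z in HOXA, -1.67 for H3K36me3 in HOXB, -7.38 for H3K36me3 and 1.16 for labelled H3K9me3 in HOXC, and 3.07 for H3K4me2 and 0 for labelled H3K9me3 in HOXD. With windows shortened by 10 kb at both ends it was 2.19 for H3K4me2 and 0 for labelled H2A.Z in HOXA, -1.56 for H3K27me3 in HOXB, -3.05 for H3K4me2, -12.6 for H3K27ac and 0 for labelled H3K9me3 in HOXC, and 3.74 for H3K4me2 in HOXD. The shares of labelled H2A.Z in HOXA and labelled H3K9me3 in HOXC were 0% in shortened windows, and the latter was 0.589% in windows lengthened by 20 kb. In bins of 2 kb the ratio to the genome for labelled H3K9me3 was 2.98 in HOXA and 1.74 in HOXD. The causes of the changes in value were not tested. Depth is unknown, and 1 library per mark gives no replicate error. No paired analysis was possible because each mark has 1 sample.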

Other observations

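Outside the HOXD window the nearest H3K27ac peaks lay 73.6 kb beyond the early edge and 72.1 kb beyond the late edge. The nearest peaks labelled H3K9me3 lay at 73.6 and 72.2 kb. Beyond the early edge of HOXC the distances were 65.3 kb for H3K27ac and 64.8 kb for the list labelled H3K9me3.

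H3K36me3 was far from HOXA, with the nearest peaks 708.1 kb beyond the early edge and 302.3 kb beyond the late edge. At HOXC it continued 0.5 kb beyond the early edge, with 6 peaks in the next 100 kb, and the nearest beyond the late edge was 207.0 kb away. Around HOXB, 9 H3K27ac peaks lay within 100 kb beyond the early edge and 2 beyond the late edge.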
